A study of Homo sapiens with 9 samples.

Results

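The genes described here were 52 human genes of the lysosome and its proton pump, picked by symbol for what their proteins do. They comprised 24 soluble hydrolases, 8 lysosomal membrane proteins, 2 soluble lysosomal proteins that are not enzymes (NPC2 and GRN), 16 subunits and accessory proteins of the vacuolar ATPase (V-ATPase), and 2 transcription factors, TFEB and TFE3. All 52 were among the 60671 genes listed in each library, and 50 of them were among the 13390 genes with enough counts to be tested. Their mRNA was counted by sequencing polyadenylated RNA of N/TERT cells, human skin keratinocytes immortalised with telomerase, in 3 groups of 3 libraries. KO cells carried a CRISPR knockout of SGPL1, the gene of sphingosine-1-phosphate lyase, OE cells overexpressed SGPL1, and control cells were labelled wild type. No group was treated. The labels name each library of a group as a biological replicate; whether the KO cells were 1 clone or several, and what drove SGPL1 in the OE cells, was not given in the sources used here, so p-values measure the spread between these libraries.

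Lysosomes break down proteins, sugar chains and lipids with acid hydrolases, which are made in the endoplasmic reticulum and delivered through the Golgi. The V-ATPase acidifies the lumen: its V1 sector hydrolyses ATP in the cytosol, its V0 sector carries protons through the membrane, and glycosylated membrane proteins such as LAMP1 and LAMP2 line the inner face. TFEB and TFE3 are transcription factors of the MiT/TFE family that bind E-box elements in the promoters of many lysosomal genes. In the epidermis, cathepsins also take part in the processing of proteins as keratinocytes mature into the cornified layer.

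Libraries held 6317564 to 13330479 counts, so that 3 counts corresponded to between 0.225 and 0.475 per 1000000 counts. Levels are given in CPM, the counts per 1000000 after TMM scaling of the library sizes. SGPL1 itself stood at 58.8, 58.3 and 61.6 CPM in KO libraries, 1132, 1104 and 929 CPM in OE libraries and 83.9, 95.1 and 98.3 CPM in control libraries, so its mRNA was present but lower in the KO libraries (log2 fold change -0.64, against 3.51 in OE). Exon length here counts every annotated exon base of a gene, over all its transcripts, and can exceed the length of its mRNA. In KO against control, all genes tested had a median log2 fold change of 0.52 in the tenth with the shortest exons (median length 1178 bases) and of -0.45 in the tenth with the longest (13563 bases). Most KO values are therefore given with a second, corrected value, from a fit in which the trend over exon length and GC content was removed from each library, after which those medians were 0.15 and -0.02. Keratinocyte markers summed to 15760 ± 561 CPM in KO cells, 34190 ± 1127 CPM in OE cells and 30560 ± 368 CPM in control cells, with 9 of 10 lower in KO cells (KRT5 and KRT14 among them) and 1 higher. With the trend removed, 7 were lower and 1 higher. Over all genes tested, 25.9% were lower in KO, or 20.7% corrected. Of 10 macrophage and leukocyte markers, 7 had no count in any library of any group, PTPRC and CD68 included, so these do not tell the groups apart. The list summed to 34.9 ± 0.160 CPM in KO cells, 7.71 ± 0.458 CPM in OE cells and 16.9 ± 1.58 CPM in control cells, almost all of it CSF1R and CD14. In RNA from whole cultures, a lower share of cells in a state and less RNA per cell cannot be told apart.

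Promoters of the genes were searched for the E-box CACGTG and for its extended form TCACGTGA, the core of the element to which TFEB and TFE3 are known to bind. Both motifs read the same on either strand, and each extended motif contains an E-box. RefSeq promoter windows (250 bases before to 50 after a start, GRCh38.p14) were found for 39 of the 52 genes; those without one were ATP6V1C1, HGSNAT, ATP6V1B2, ATP6V1A, ATP6V0E1, NAGLU, CTSB, MANBA, LAMP2, SGSH, CTSS, ATP6V1H and HEXA. Of the 39 genes, 11 (28.2%) held an E-box and 7 (17.9%) held the extended motif, against 8.77% and 1.18% of all 27305 genes in the table and 12.4% and 2.29% of the genes tested here. A gene counted if any of its windows held the motif, and genes had unequal numbers of windows. The 7 genes with the extended motif were GAA, ATP6V1G1, ATP6V0D1 and LAMP1, which were higher in KO cells, MCOLN1 and CTSA, which did not pass the test in KO, and CLN3, which was not tested. The windows of the 6 tested genes are shown for their extended motif, which is in capitals.
GAA promoter (chr17:80101331-80101630, plus strand): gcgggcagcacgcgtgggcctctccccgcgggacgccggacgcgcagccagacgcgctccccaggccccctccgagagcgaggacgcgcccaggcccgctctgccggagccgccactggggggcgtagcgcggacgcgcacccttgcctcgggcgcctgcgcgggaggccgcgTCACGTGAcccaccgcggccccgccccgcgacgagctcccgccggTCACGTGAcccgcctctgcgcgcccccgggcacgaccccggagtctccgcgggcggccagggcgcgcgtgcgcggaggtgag
ATP6V1G1 promoter (chr9:114587519-114587818, plus strand): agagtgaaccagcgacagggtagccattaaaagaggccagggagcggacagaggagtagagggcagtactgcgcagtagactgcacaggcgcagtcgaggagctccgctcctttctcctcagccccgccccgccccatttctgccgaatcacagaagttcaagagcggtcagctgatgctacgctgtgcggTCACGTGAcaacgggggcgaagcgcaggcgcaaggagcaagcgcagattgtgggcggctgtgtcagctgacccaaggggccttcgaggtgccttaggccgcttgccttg
ATP6V0D1 promoter (chr16:67481108-67481407, minus strand): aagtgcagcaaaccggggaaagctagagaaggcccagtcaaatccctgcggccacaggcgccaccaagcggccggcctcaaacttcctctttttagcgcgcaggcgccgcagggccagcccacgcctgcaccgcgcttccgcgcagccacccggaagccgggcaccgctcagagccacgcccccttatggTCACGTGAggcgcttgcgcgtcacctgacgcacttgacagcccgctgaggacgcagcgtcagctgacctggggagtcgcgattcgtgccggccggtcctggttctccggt
LAMP1 promoter (chr13:113296989-113297288, plus strand): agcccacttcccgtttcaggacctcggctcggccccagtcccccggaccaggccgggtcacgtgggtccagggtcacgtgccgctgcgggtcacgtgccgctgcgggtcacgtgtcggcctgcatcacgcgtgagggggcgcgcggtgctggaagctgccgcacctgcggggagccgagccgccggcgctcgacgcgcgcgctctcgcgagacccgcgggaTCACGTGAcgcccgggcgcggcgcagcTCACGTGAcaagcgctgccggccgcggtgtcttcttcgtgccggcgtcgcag
MCOLN1 promoter (chr19:7522374-7522673, plus strand): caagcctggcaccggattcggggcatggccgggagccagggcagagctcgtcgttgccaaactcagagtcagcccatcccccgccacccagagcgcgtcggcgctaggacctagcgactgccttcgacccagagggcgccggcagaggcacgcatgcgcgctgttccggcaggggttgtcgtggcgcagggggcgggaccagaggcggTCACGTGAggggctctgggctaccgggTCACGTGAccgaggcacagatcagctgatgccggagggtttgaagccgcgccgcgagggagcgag
CTSA promoter (chr20:45891085-45891384, plus strand): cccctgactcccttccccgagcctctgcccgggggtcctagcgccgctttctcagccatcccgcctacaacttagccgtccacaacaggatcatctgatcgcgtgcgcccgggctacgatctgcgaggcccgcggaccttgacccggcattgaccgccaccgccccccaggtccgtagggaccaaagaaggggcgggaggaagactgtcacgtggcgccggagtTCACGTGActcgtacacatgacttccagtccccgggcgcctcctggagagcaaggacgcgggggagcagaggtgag
The GAA, LAMP1 and MCOLN1 windows hold the extended motif in 2 copies each, and those of ATP6V1G1, ATP6V0D1 and CTSA in 1 copy each. The LAMP1 window holds 6 E-boxes in all.

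In KO cells most of the lysosomal genes that differed from control were higher. Of the 50 tested, 26 were higher in KO, 6 were lower and 18 did not pass the test (adjusted p under 0.05, quasi-likelihood test of edgeR, with p adjusted by Benjamini and Hochberg over all genes tested), against 26.0% of all genes tested that were higher and 25.9% that were lower. Their median log2 fold change was 0.25, against a median near 0.00 over all genes. With the length and GC trend removed, 28 were higher and 5 lower (24.8% and 20.7% of all genes), 23 of the 26 and 4 of the 6 kept their call, and the median was 0.41. In 26 of the 50 every KO library lay above every control library (30% of all genes), and in 9 every KO library lay below (29.4%). Together the 52 genes summed to 8983 ± 47.1 CPM in KO cells, 5992 ± 142 CPM in OE cells and 6570 ± 93.9 CPM in control cells (SD, n = 3). The libraries of the 3 groups did not overlap in this sum. The keratinocyte markers, the macrophage list sum (almost all of it CSF1R and CD14) and the trend over exon length moved in the same comparison. Their part in these differences was not tested beyond the corrected fit.

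**Figure D1:**
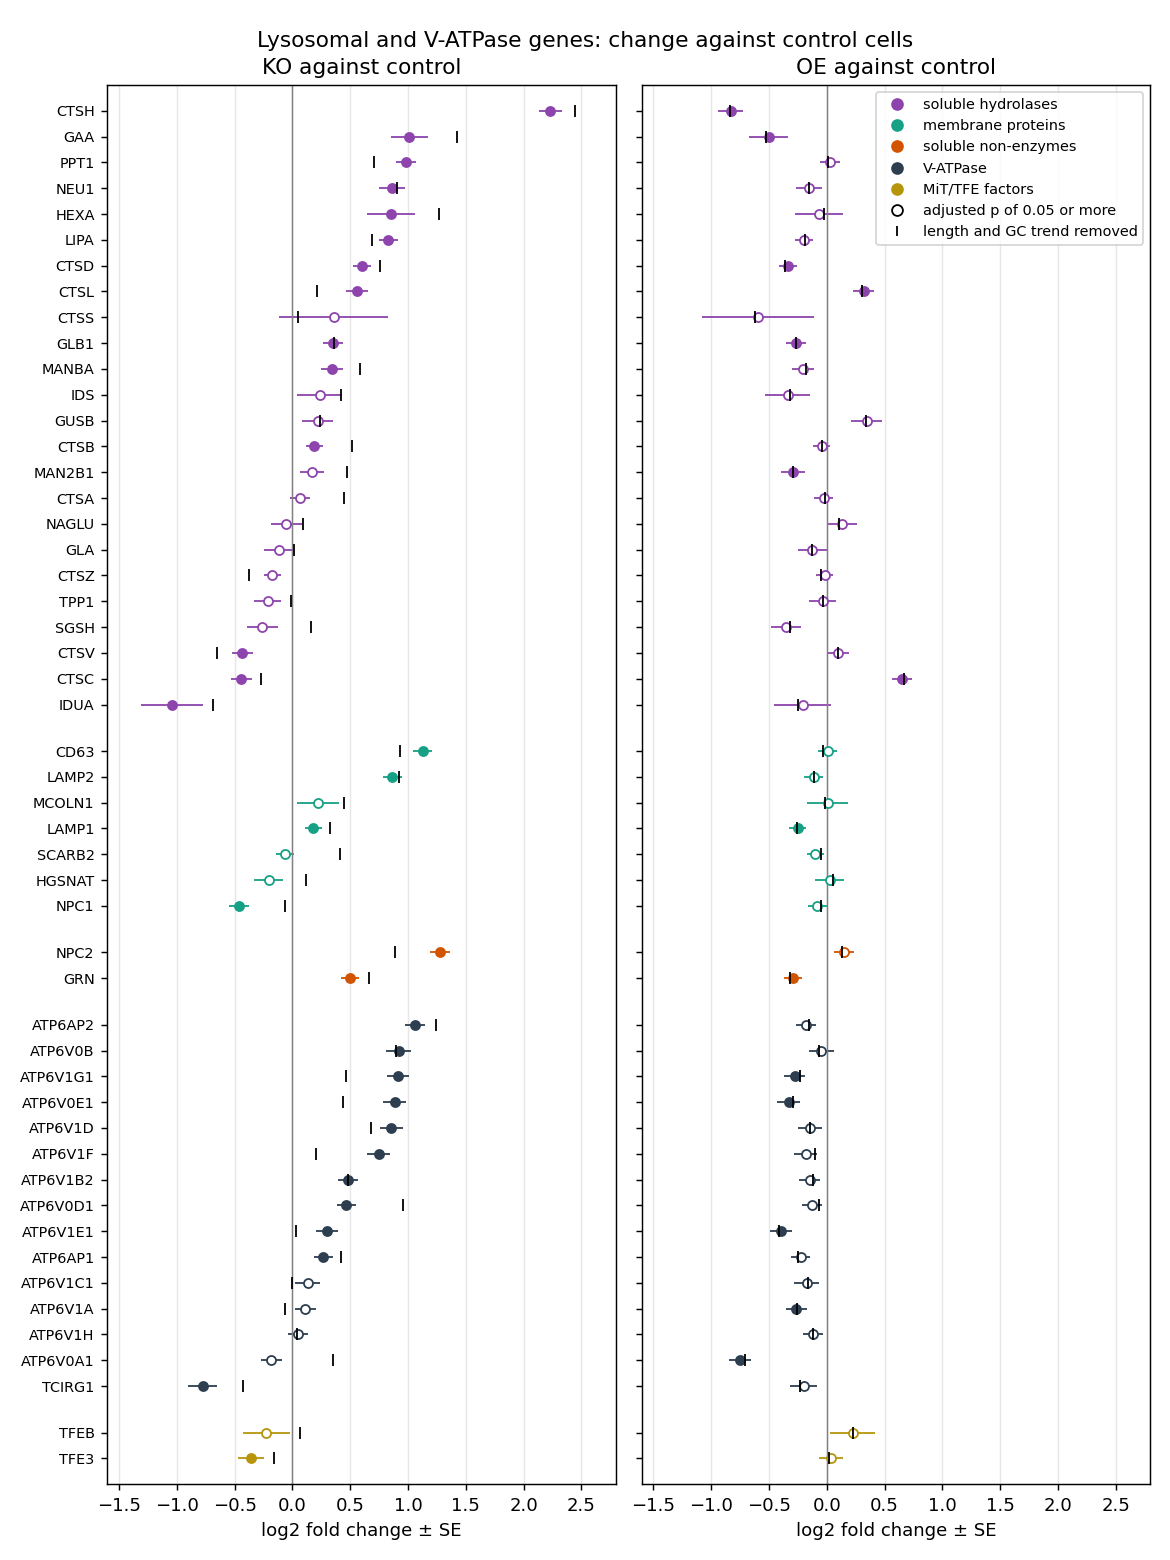
Log2 fold change ± SE of the 50 tested genes, by role, in KO against control (left) and OE against control (right). Filled points passed an adjusted p of 0.05, open points did not, and black ticks give the value with the length and GC trend removed. Most filled points lie right of 0 in KO cells, where CTSH reached 2.23, and left of 0 in OE cells.

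**Figure D2:**
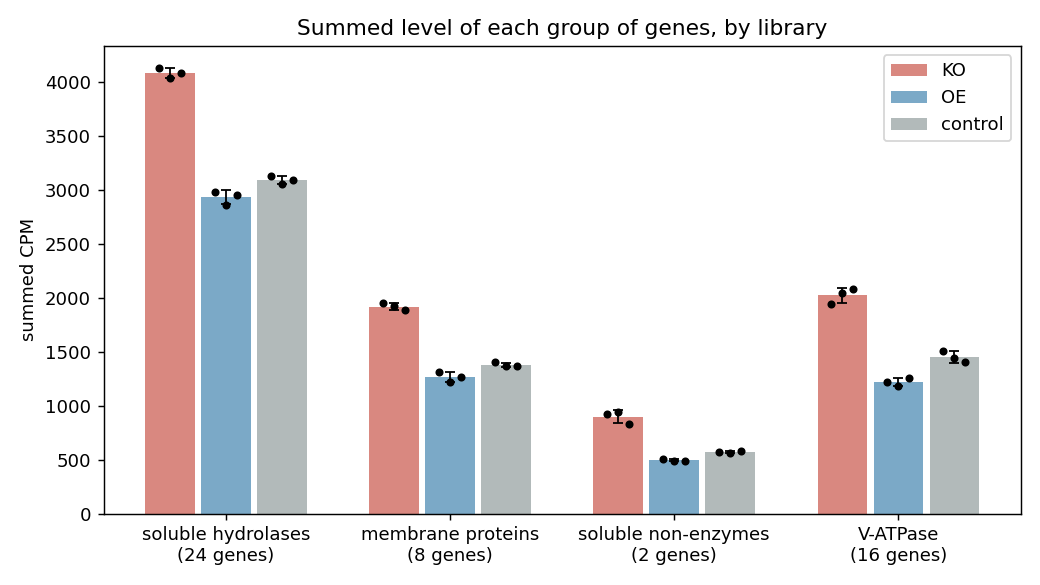
Summed CPM of the genes of each role, by library (points), with the mean (bars) and SD. In each of the 4 roles shown the 3 KO libraries lie above the OE and control libraries, and for the soluble hydrolases the KO mean is 4082 CPM, the OE mean 2931 CPM and the control mean 3092 CPM.

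Among the soluble hydrolases, 11 of 24 were higher in KO cells, 3 were lower and 10 did not pass the test (corrected 12 higher and 4 lower). Of all genes tested, 26.0% were higher and 25.9% lower, against 45.8% and 12.5% of the hydrolases. The summed level was 4082 ± 43.4 CPM in KO cells, 2931 ± 64.5 CPM in OE cells and 3092 ± 36.7 CPM in control cells. The 9 cathepsins of the list, the lysosomal proteases, were split, with 4 higher (CTSB, CTSD, CTSH and CTSL), 2 lower (CTSC and CTSV) and 3 without a call. CTSH (chr15:78921058-78949574 on GRCh38, minus strand), a cysteine protease that mainly trims residues from the amino end, had 218, 219 and 248 CPM in KO libraries, 30.2, 23.4 and 28.4 CPM in OE libraries and 51.1, 50.03 and 44.7 CPM in control libraries. The KO libraries were far above all others and the OE libraries were the lowest, with no overlap. The log2 fold change in KO was 2.23 ± 0.10 (SE, adjusted p = 1.24e-13), a 4.69-fold difference, and 2.44 corrected. It was the largest change of the 50 genes in the KO comparison, and genes within 5 Mb of CTSH had a median log2 fold change of 0.06.

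CTSD, the main aspartic protease of lysosomes, had 833, 776 and 793 CPM in KO libraries, 449, 401 and 404 CPM in OE libraries and 522, 533 and 527 CPM in control libraries. KO libraries were highest and OE libraries lowest, again without overlap, and the log2 fold change in KO was 0.60 ± 0.07 (SE, adjusted p = 4.55e-07), or 0.76 corrected. Of the exon bases of CTSD, 53.3% are shared with other annotated genes, PRADX among them, so part of its reads may not have been counted. CTSB, a cysteine protease found in most cell types, had 664, 645 and 628 CPM in KO libraries, 545, 543 and 560.3 CPM in OE libraries and 589.9, 544 and 565 CPM in control libraries. The 3 KO libraries were the highest, by a small margin. The log2 fold change was 0.19 ± 0.07 (SE, adjusted p = 0.0311), or 0.51 corrected, a call that was lost without control replicate 2 (adjusted p = 0.138), control replicate 3 (0.0865), KO replicate 1 (0.0808) or KO replicate 2 (0.0702).

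CTSL (chr9:87726109-87731469) and CTSV (chr9:97029677-97039643) encode closely related cysteine endopeptidases, and they differed in opposite directions in KO cells. CTSL had 107, 97.6 and 124 CPM in KO libraries, 88.4, 94.2 and 95.4 CPM in OE libraries and 74.9, 75.4 and 72.7 CPM in control libraries. CTSV, also called cathepsin L2 and known from keratinocytes and thymus, had 52.8, 56.1 and 55.5 CPM in KO libraries, 84.7, 74.9 and 78.3 CPM in OE libraries and 75.4, 72.6 and 73.7 CPM in control libraries. CTSL was lowest in the control libraries and CTSV lowest in the KO libraries. The log2 fold change in KO was 0.56 ± 0.09 (SE, adjusted p = 2.73e-05) for CTSL and -0.43 ± 0.09 (SE, adjusted p = 0.000386) for CTSV. With the trend removed, CTSV stood at -0.65 (adjusted p = 9.21e-07), whereas CTSL stood at 0.21 and no longer passed the test (adjusted p = 0.0501). CTSC, or dipeptidyl peptidase I, had 96.5, 87.9 and 96.6 CPM in KO libraries, 178, 193 and 226 CPM in OE libraries and 127, 127 and 127 CPM in control libraries. The KO libraries of CTSC were lowest and the OE libraries highest, the reverse of CTSH. Its log2 fold change in KO was -0.44 ± 0.09 (SE, adjusted p = 0.000284), or -0.27 corrected.

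The cathepsins without a call were CTSA, CTSS and CTSZ. CTSZ, a carboxypeptidase and in control cells the most abundant of the 52 genes per kilobase of annotated exon, averaged 482 CPM in KO cells, 536 in OE cells and 543 in control cells. It missed the threshold in KO (log2 fold change -0.17, adjusted p = 0.0517) but was lower with the trend removed (-0.37, adjusted p = 0.000132). CTSA, the protective protein that stabilises beta-galactosidase and neuraminidase, averaged 127 CPM in KO cells, 119 in OE cells and 121 in control cells and was higher only with the trend removed (0.45, adjusted p = 2.83e-05). Of its exon bases, 28.5% are shared with other annotated genes, PLTP among them. CTSS, which is known mainly from antigen-presenting cells, was close to the limit of detection, with 1.45, 3.81 and 2.20 CPM in KO libraries, 0.775, 2.02 and 1.09 CPM in OE libraries and 2.18, 2.00 and 1.69 CPM in control libraries.

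Enzymes that act on lipids and glycogen were higher in KO cells. LIPA, the acid lipase that hydrolyses cholesteryl esters and triglycerides, had 717, 767 and 779 CPM in KO libraries, 372, 349 and 387 CPM in OE libraries and 461, 396 and 416 CPM in control libraries. PPT1, which removes palmitate from proteins, had 198, 203 and 219.5 CPM in KO libraries, 97.8, 109 and 113 CPM in OE libraries and 114, 97.3 and 102 CPM in control libraries. GAA, the acid alpha-glucosidase of glycogen breakdown, had 48.6, 43.0 and 40.9 CPM in KO libraries, 20.8, 11.2 and 14.6 CPM in OE libraries and 21.3, 21.3 and 23.2 CPM in control libraries. For all 3, each KO library lay above each other library, and LIPA and GAA were lowest in the OE libraries. LIPA gave no call in OE (log2 fold change -0.20, adjusted p = 0.083). The log2 fold change in KO was 0.83 ± 0.08 (SE, adjusted p = 9.17e-09) for LIPA, 0.98 ± 0.09 (SE, adjusted p = 3.15e-09) for PPT1 and 1.01 ± 0.16 (SE, adjusted p = 1.12e-05) for GAA. Corrected values were 0.69, 0.70 and 1.42. GAA is a gene whose promoter, shown above, holds the extended motif in 2 copies.

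The glycosidases and sulfatases, which strip sugars and sulfate groups from glycolipids, glycoproteins and glycosaminoglycans, were mixed. NEU1, the lysosomal sialidase, had 63.8, 66.6 and 68.0 CPM in KO libraries, 34.8, 28.0 and 35.3 CPM in OE libraries and 33.0, 37.3 and 38.9 CPM in control libraries. HEXA, the alpha subunit of beta-hexosaminidase, had 19.0, 14.0 and 17.4 CPM in KO libraries, 6.86, 8.17 and 11.3 CPM in OE libraries and 10.5, 8.64 and 8.76 CPM in control libraries. Both were higher in every KO library, with log2 fold changes of 0.86 ± 0.11 (SE, adjusted p = 9.45e-07) and 0.85 ± 0.20 (SE, adjusted p = 0.00122), and corrected values of 0.91 and 1.27. GLB1 (beta-galactosidase) and MANBA (beta-mannosidase) were also higher, by 0.35 and 0.34 on the log2 scale, or 0.36 and 0.59 corrected. IDUA, the iduronidase of heparan and dermatan sulfate, was low and went the other way, with 3.86, 3.14 and 3.38 CPM in KO libraries, 4.65, 7.46 and 6.35 CPM in OE libraries and 6.99, 7.69 and 6.74 CPM in control libraries. Its KO libraries were below all others, and the log2 fold change was -1.04 ± 0.27 (SE, adjusted p = 0.00232), or -0.69 corrected. The remaining 7, the tripeptidyl peptidase TPP1 and GLA, GUSB, IDS, MAN2B1, NAGLU and SGSH, gave no call in KO. They averaged between 10.9 CPM (IDS) and 71.8 CPM (MAN2B1) in control cells. MAN2B1 was higher only with the trend removed (0.47, adjusted p = 0.000147). For IDS, 75.9% of exon bases are shared with other annotated genes.

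**Figure D3:**
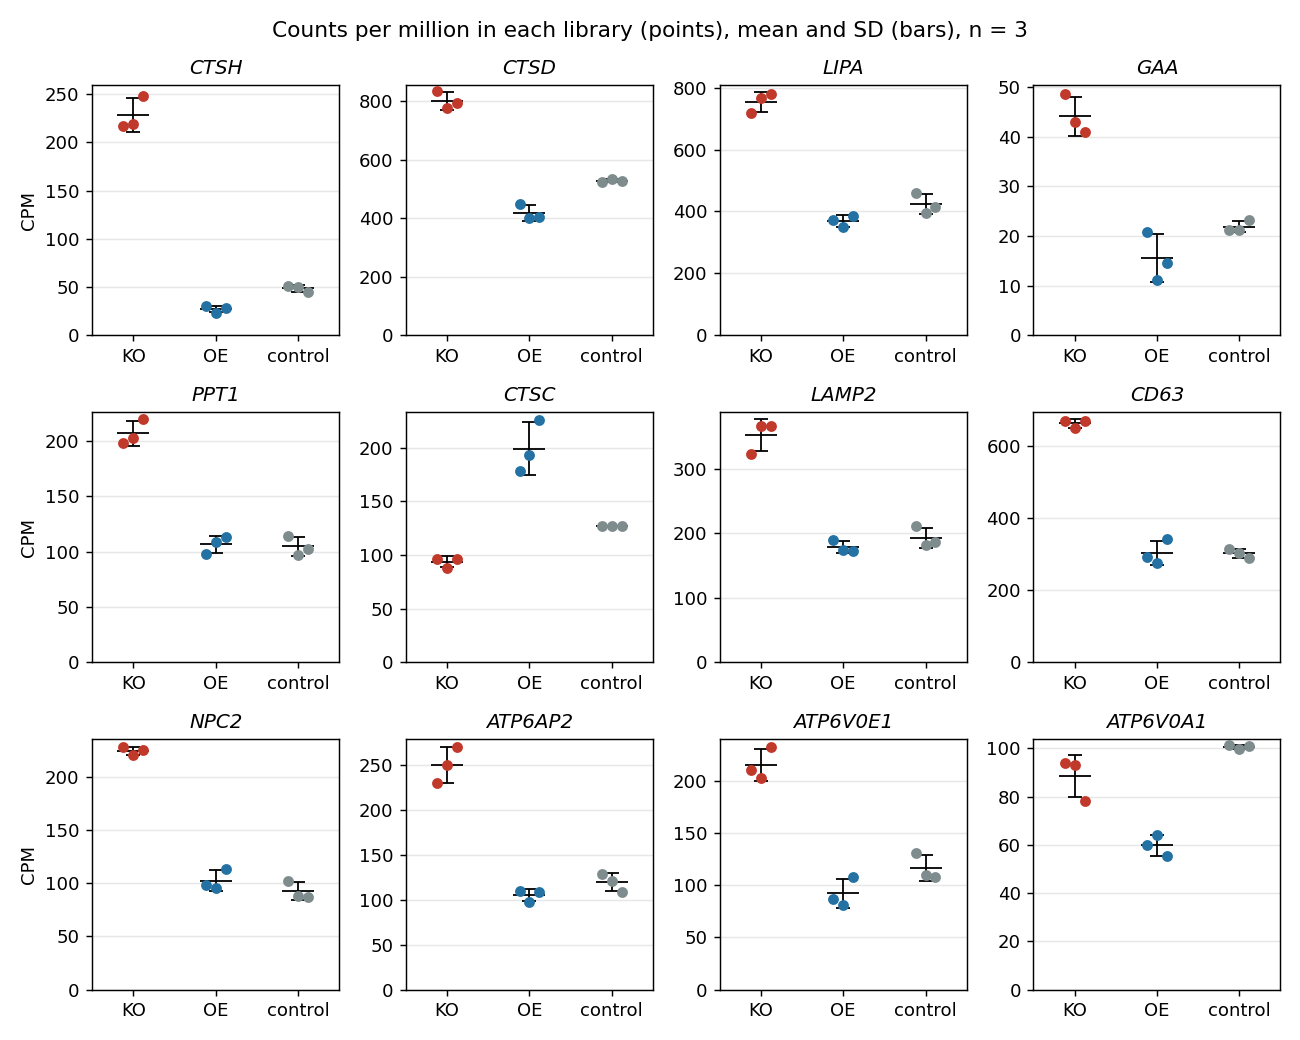
CPM of 12 genes in each library (points), with the mean and SD of each group (bars). CTSH, LIPA, PPT1, LAMP2, CD63, NPC2 and ATP6AP2 are high in KO libraries alone, CTSC is lowest in KO and highest in OE libraries, and ATP6V0A1 is lowest in OE libraries, at 55.4 to 64.1 CPM.

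Of the membrane proteins, 3 of the 7 tested were higher in KO cells (CD63, LAMP2 and LAMP1), 1 was lower (NPC1) and 3 did not pass the test (corrected 5 higher and 0 lower). Of all genes tested, 26.0% were higher and 25.9% lower, against 42.9% and 14.3% of these 7. CD63, a tetraspanin of late endosomes, lysosomes and exosomes, had 669, 649.6 and 669.8 CPM in KO libraries, 292, 277 and 342 CPM in OE libraries and 314, 304 and 290.4 CPM in control libraries. LAMP2, a heavily glycosylated protein of the lysosomal membrane, had 323, 367 and 367 CPM in KO libraries, 189.6, 175 and 172 CPM in OE libraries and 211, 182 and 187 CPM in control libraries. The KO libraries were the highest for both, and OE and control libraries overlapped. Their log2 fold changes in KO were 1.13 ± 0.08 (SE, adjusted p = 1.62e-10) and 0.86 ± 0.08 (SE, adjusted p = 1.03e-08), with corrected values of 0.93 and 0.93. LAMP1, its close relative, had 614, 580.2 and 549 CPM in KO libraries, 456, 415 and 417 CPM in OE libraries and 511, 509 and 515 CPM in control libraries. The KO libraries of LAMP1 were highest and its OE libraries lowest, although the log2 fold change in KO was only 0.18 ± 0.07 (SE, adjusted p = 0.0439), 0.33 corrected. That call was lost without control replicate 1 (adjusted p = 0.0894), 2 (0.115) or 3 (0.0958), or without KO replicate 1 (0.152) or 2 (0.0903).

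NPC1 and NPC2 hand cholesterol out of the lysosome together, NPC2 in the lumen and NPC1 in the membrane, and they moved apart. NPC2 had 228, 221 and 225 CPM in KO libraries, 97.9, 95.5 and 113 CPM in OE libraries and 102, 87.6 and 87.4 CPM in control libraries. NPC1 had 97.7, 92.9 and 83.9 CPM in KO libraries, 125, 119.6 and 113 CPM in OE libraries and 125, 125 and 129 CPM in control libraries. Each KO library was above all others for NPC2 and below all others for NPC1. The log2 fold change in KO was 1.28 ± 0.09 (SE, adjusted p = 8.29e-11) for NPC2 and -0.46 ± 0.09 (SE, adjusted p = 8.52e-05) for NPC1. With the trend removed, NPC2 stood at 0.89, and NPC1, whose exons span 9705 bases, stood at -0.06 and no longer passed (adjusted p = 0.547). GRN, the progranulin precursor that is cut into granulins in lysosomes, had 694, 724 and 608 CPM in KO libraries, 407, 394 and 373 CPM in OE libraries and 466, 475 and 495 CPM in control libraries. It was highest in KO and lowest in OE libraries, with a log2 fold change in KO of 0.50 ± 0.08 (SE, adjusted p = 1.32e-05), or 0.66 corrected.

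MCOLN1, the calcium channel of the lysosomal membrane, was low, with 16.2, 13.5 and 11.8 CPM in KO libraries, 12.1, 12.8 and 11.1 CPM in OE libraries and 10.8, 13.3 and 11.6 CPM in control libraries. Its groups overlapped, and the log2 fold change in KO was 0.22 ± 0.18 (SE, adjusted p = 0.311), although it was higher with the trend removed (0.45, adjusted p = 0.0387). SCARB2, the receptor that carries glucocerebrosidase to lysosomes, has the longest exons of the 52 genes (19295 bases) and averaged 175 CPM in KO cells, 171 in OE cells and 183 in control cells. Its log2 fold change was -0.06 (adjusted p = 0.525), and 0.41 with the trend removed (adjusted p = 5.23e-05). HGSNAT, the acetyltransferase of heparan sulfate breakdown, gave no call and averaged 41.0 CPM in KO cells, 48.4 in OE cells and 47.5 in control cells. CLN3, a membrane protein of late endosomes and lysosomes, was not tested: its counts came to 6, 5 and 4 over the KO, OE and control libraries. Of its exon bases, 31.0% are shared with other genes.

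Most genes of the proton pump were higher in KO cells. Of 15 V-ATPase genes tested, 10 were higher, 1 was lower (TCIRG1) and 4 did not pass the test (corrected 9 higher and 1 lower), with a median log2 fold change of 0.47, or 0.42 corrected. Of all genes tested, 26.0% were higher and 25.9% lower, against 66.7% and 6.67% of these 15. The V-ATPase genes summed to 2022 ± 71.1 CPM in KO cells, 1221 ± 36.1 CPM in OE cells and 1451 ± 52.6 CPM in control cells. ATP6V0C, which encodes the proteolipid of the proton-carrying ring, was not tested, with 2, 9 and 5 counts over the KO, OE and control libraries. Its exons are shared on 76.3% of their bases, so that its level is not known from these counts.

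In the V0 sector, 3 of 5 tested subunits were higher and 1 was lower, against 26.0% and 25.9% of all genes tested. The corrected fit gave 4 higher and 1 lower, against 24.8% and 20.7% of all genes. ATP6V0B, a proteolipid of the ring, had 95.8, 113 and 115 CPM in KO libraries, 48.1, 52.0 and 64.0 CPM in OE libraries and 57.6, 58.7 and 54.2 CPM in control libraries. ATP6V0E1, a small membrane subunit, had 209.9, 203 and 232 CPM in KO libraries, 87.0, 81.3 and 108 CPM in OE libraries and 131, 109.8 and 108 CPM in control libraries. ATP6V0D1, which couples the ring to the central stalk, had 173, 182 and 176 CPM in KO libraries, 104, 121 and 126 CPM in OE libraries and 130, 131 and 124 CPM in control libraries. All 3 were higher in each KO library, with log2 fold changes of 0.92 ± 0.11 (SE, adjusted p = 1.89e-07), 0.89 ± 0.10 (SE, adjusted p = 1.45e-07) and 0.47 ± 0.08 (SE, adjusted p = 6.36e-05). Corrected values were 0.90, 0.44 and 0.95: the short ATP6V0E1 (1609 bases) moved down and the long ATP6V0D1 (8156 bases) moved up.

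The large subunit a of V0 exists in several isoforms, and neither of the 2 on the list was higher in KO cells in the fit as it stood. TCIRG1, isoform a3, had 30.4, 40.7 and 41.6 CPM in KO libraries, 58.4, 56.7 and 52.7 CPM in OE libraries and 55.6, 66.2 and 70.8 CPM in control libraries. ATP6V0A1, isoform a1, had 93.9, 93.1 and 78.3 CPM in KO libraries, 59.8, 64.1 and 55.4 CPM in OE libraries and 101, 99.7 and 101 CPM in control libraries. TCIRG1 was lowest in the KO libraries and ATP6V0A1 in the OE libraries. TCIRG1 had a log2 fold change in KO of -0.78 ± 0.12 (SE, adjusted p = 1.14e-05), and -0.43 corrected (adjusted p = 0.00285). ATP6V0A1 did not pass (-0.18 ± 0.09 SE, adjusted p = 0.106) and turned to 0.35 (adjusted p = 0.00106) with the trend removed.

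In the V1 sector, 5 of 8 subunits (62.5%) were higher in KO cells and 0 were lower, against 26.0% and 25.9% of all genes tested. With the trend removed, 3 were higher and 0 lower, against 24.8% and 20.7% of all genes. ATP6V1G1, of the peripheral stalk, had 166, 195 and 177 CPM in KO libraries, 81.1, 72.1 and 82.0 CPM in OE libraries and 107, 90.7 and 88.3 CPM in control libraries. ATP6V1D, of the central stalk, had 94.5, 97.8 and 109 CPM in KO libraries, 52.5, 45.3 and 52.5 CPM in OE libraries and 58.6, 51.1 and 56.6 CPM in control libraries. The KO libraries of both lay above all others. Their log2 fold changes were 0.91 ± 0.09 (SE, adjusted p = 2.61e-08) and 0.86 ± 0.10 (SE, adjusted p = 1.64e-07), and corrected values were 0.47 and 0.68. ATP6V1B2, a subunit of the catalytic head, was also higher (0.48, corrected 0.48). ATP6V1F, whose exons are the shortest of the 52 genes at 762 bases and overlap KCP on 20.6% of their bases, was higher by 0.75 but not with the trend removed (0.20, adjusted p = 0.0667). ATP6V1E1 was higher by 0.30 (adjusted p = 0.011), a call lost with the trend removed (0.03) and without control replicate 3 (adjusted p = 0.0713) or KO replicate 3 (0.0592). ATP6V1A, the catalytic subunit that binds ATP, and ATP6V1C1 and ATP6V1H, which regulate how the sectors join, gave no call in KO and averaged 164, 70.0 and 102 CPM in KO cells, against 151, 64.0 and 98.2 CPM in control cells. The median of the V1 subunits was 0.39 in the fit as it stood and 0.12 with the trend removed.

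The accessory proteins of the pump were both higher in KO cells. ATP6AP2, also known as the prorenin receptor, had 231, 250.1 and 271 CPM in KO libraries, 109.8, 98.2 and 109 CPM in OE libraries and 129, 122 and 109 CPM in control libraries, and its KO libraries were higher than all others. Its log2 fold change was 1.06 ± 0.09 (SE, adjusted p = 1.1e-09), the largest of the V-ATPase genes, and 1.24 corrected. ATP6AP1 was higher by 0.27 (adjusted p = 0.00979), or 0.42 corrected. Per kilobase of exon, the most abundant pump genes in KO cells were ATP6V1F at 137 ± 6.77 CPM per kilobase and ATP6V0E1 at 134 ± 9.48 (SD, n = 3), whose spreads overlap. The same genes led in control cells, with 81.7 ± 9.02 and 72.2 ± 7.75 CPM per kilobase. ATP6V0A1 was the lowest of the 15, at 8.09 ± 0.803 in KO cells, 5.47 ± 0.401 in OE cells and 9.21 ± 0.0744 CPM per kilobase in control cells. In control cells its spread overlapped that of ATP6V1B2, at 9.57 ± 0.330 CPM per kilobase. In KO cells it overlapped that of TCIRG1, at 8.58 ± 1.43 CPM per kilobase. The lengths count all annotated exon bases of a gene (10926 for ATP6V0A1), so the order per kilobase depends on the annotation.

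**Figure D4:**
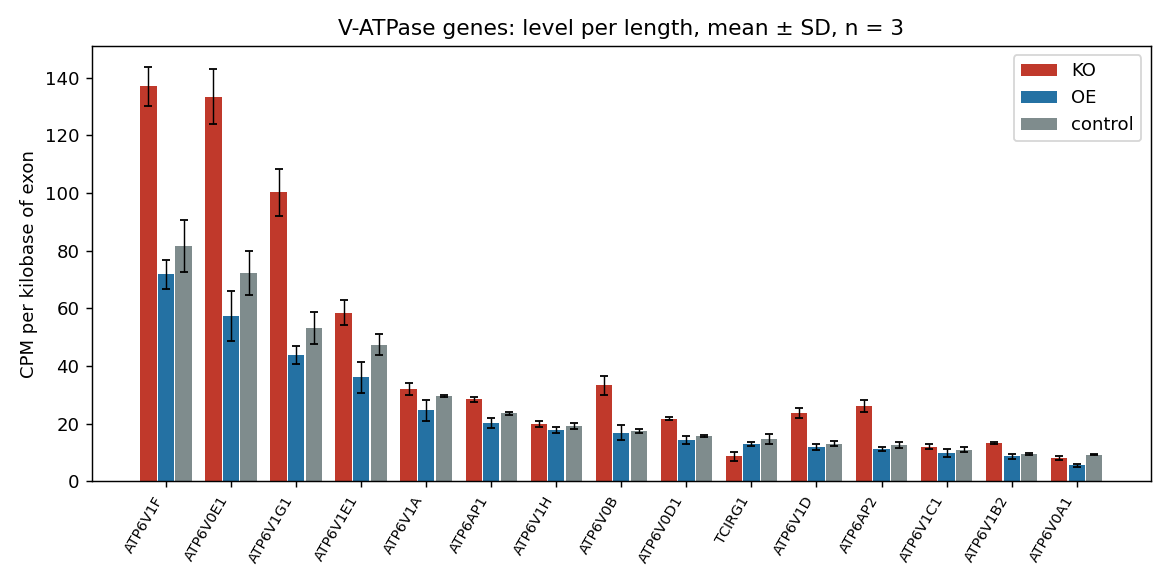
Level per length of the 15 tested V-ATPase genes, in CPM per kilobase of exon (mean ± SD, n = 3), in KO, OE and control cells, ordered by the control mean. ATP6V1F and ATP6V0E1 are the highest in each group, and TCIRG1 is the gene whose KO bar is below both others, at 8.58 CPM per kilobase.

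Neither of the 2 MiT/TFE factors among the 52 genes was called higher in KO cells. TFEB had 11.2, 14.5 and 9.98 CPM in KO libraries, 17.2, 16.4 and 15.7 CPM in OE libraries and 9.50, 16.3 and 16.3 CPM in control libraries, with control libraries that overlapped both other groups and a log2 fold change in KO of -0.23 ± 0.20 (SE, adjusted p = 0.363). TFE3 had 52.1, 57.0 and 43.5 CPM in KO libraries, 71.3, 66.5 and 64.1 CPM in OE libraries and 59.5, 72.3 and 64.6 CPM in control libraries. The KO libraries of TFE3 lay below the others, and the log2 fold change was -0.36 ± 0.11 (SE, adjusted p = 0.00831). That call was lost with the trend removed (-0.16, adjusted p = 0.199) and without control replicate 2 (adjusted p = 0.0662) or KO replicate 3 (0.057). MITF, of the same family but outside the 52 genes, was lower in KO, with each KO library below each control library. Its log2 fold change was -0.40 (adjusted p = 0.001), and -0.41 with the trend removed (adjusted p = 0.000392). These are mRNA levels; TFEB and TFE3 are known to be controlled largely by where the proteins sit in the cell, which was not measured. Set beside the motif search above, the 10 tested genes with an E-box in a promoter window comprised 8 that were higher in KO cells and 0 that were lower, and the 27 without one comprised 12 higher and 6 lower. The median log2 fold changes were 0.73 and 0.22 (corrected 0.83 and 0.24). TFEB and TFE3 themselves were among the genes without either motif, TFE3 as a lower one. CD63 held an E-box in some of its windows only. For the extended motif the medians lay closer: the 6 tested genes with it, 4 of them higher and 0 lower, had a median of 0.35, and the 31 without it, 16 higher and 6 lower, had a median of 0.27 (corrected 0.46 and 0.36). These values describe genes chosen by function, and no difference by motif was tested. Over all genes tested, with or without a motif, 26.0% were higher in KO cells and 25.9% lower.

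The KO values were also set out by exon length. Over all genes tested, whatever their length, 26.0% were higher in KO and 25.9% lower. Their median log2 fold change was 0.52 in the tenth with the shortest exons (0.15 corrected). In the tenth with the longest exons it was -0.45 (-0.02 corrected). Among the 17 tested genes with the shortest exons (762 to 4071 bases), 11 were higher in KO cells and 1 was lower, with a median log2 fold change of 0.56 (0.44 corrected). The middle 16 (4207 to 5856 bases) comprised 7 higher and 3 lower, with a median of 0.15 (0.34 corrected). The 17 with the longest exons (5892 to 19295 bases) comprised 8 higher and 2 lower, with a median of 0.19 (0.42 corrected). The median was thus highest for the shortest genes but no lower for the longest than for the middle ones. The part of library preparation or RNA length in the KO results was not tested. Neighbouring genes were measured as well: over the 50 genes, the median log2 fold change of all tested genes within 5 Mb ranged from -0.27 to 0.32 in KO against control.

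**Figure D5:**
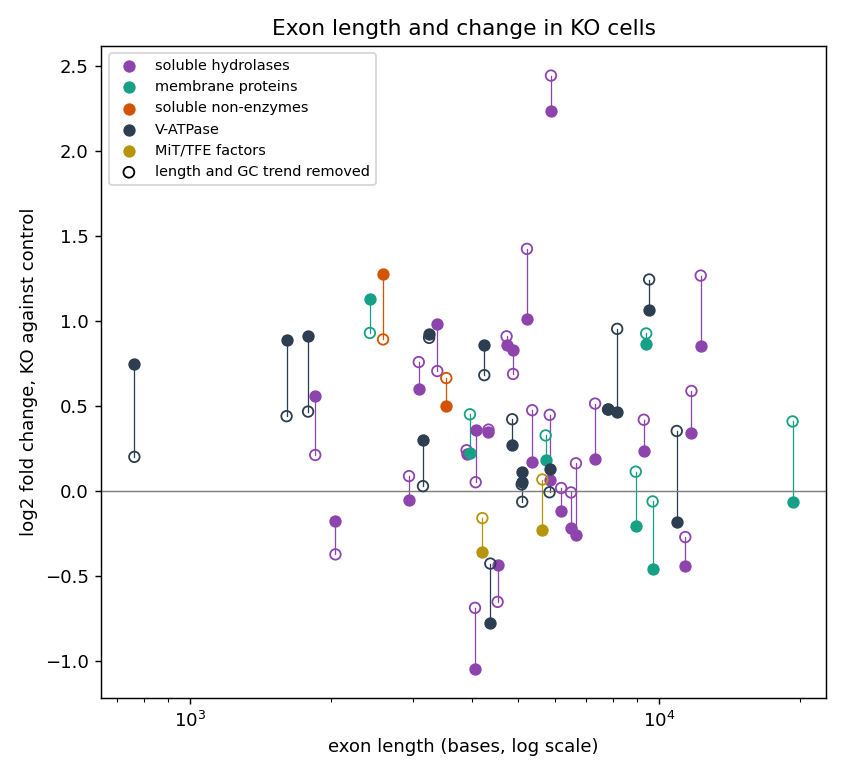
Log2 fold change in KO against control of the 50 tested genes by exon length (log axis), coloured by role. Filled points are from the fit as it stood and open points, joined to them, from the fit with the length and GC trend removed. The shortest gene, at 762 bases, moves down on removal and the longest, at 19295 bases, moves up.

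In OE cells the lysosomal genes that differed from control were mostly lower. Of the 50 tested, 2 were higher in OE (CTSC and CTSL), 12 were lower and 36 did not pass the test, against 9.28% of all genes tested that were higher and 9.34% that were lower. The median log2 fold change was -0.15. The corrected fit gave the same numbers, 2 and 12, with 10.7% and 10.5% of all genes. In 18 of the 50 every OE library lay below every control library, and in 3 every OE library lay above (17.6% and 17.2% of all genes). Of the 14 calls, 5 held whichever library was left out and 9 did not. The lower genes numbered 5 without control replicate 1 or without OE replicate 2, and 6 without control replicate 2 or 3. Calls over all genes tested fell as well. They numbered 1242 higher and 1251 lower with every library, and 1735 to 1842 in both directions together in these fits.

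Among the hydrolases, CTSC was higher in OE by 0.65 ± 0.09 (SE, adjusted p = 1.04e-05) on the log2 scale and CTSL by 0.32 ± 0.09 (SE, adjusted p = 0.0178). CTSH was lower (-0.83 ± 0.11 SE, adjusted p = 4.72e-06), as was CTSD (-0.34 ± 0.07 SE, adjusted p = 0.0022), with OE libraries below all control libraries for both. GAA (-0.50, adjusted p = 0.0364), GLB1 (-0.26, adjusted p = 0.0361) and MAN2B1 (-0.29, adjusted p = 0.0494) were lower too. GLB1 had 117, 113 and 106 CPM in KO libraries, 77.8, 68.5 and 73.7 CPM in OE libraries and 91.7, 87.6 and 84.7 CPM in control libraries. MAN2B1, a lysosomal alpha-mannosidase, had 92.1, 78.7 and 70.5 CPM in KO libraries, 63.2, 56.9 and 56.2 CPM in OE libraries and 69.3, 69.4 and 76.7 CPM in control libraries. For both, each OE library was below each control library. The calls of GAA, GLB1 and MAN2B1 were lost without any control replicate and without OE replicate 2 or 3, with adjusted p values up to 0.207, 0.155 and 0.195. CTSL lost its call without any control replicate (adjusted p = 0.0521, 0.0518 and 0.071 for 1, 2 and 3) or OE replicate 2 (0.0558).

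Of the other luminal and membrane proteins, GRN (-0.29 ± 0.08 SE, adjusted p = 0.0112) and LAMP1 (-0.25 ± 0.07 SE, adjusted p = 0.02) were lower in OE. GRN lost its call without control replicate 3 (adjusted p = 0.0636), and LAMP1 without any control replicate or OE replicate 2 (0.057 to 0.0835). CD63, LAMP2, NPC1, NPC2 and MCOLN1 gave no call. TFEB and TFE3 gave none either, with log2 fold changes of 0.22 ± 0.19 (SE, adjusted p = 0.477) and 0.04 ± 0.11 (SE, adjusted p = 0.851).

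Of the 15 V-ATPase genes, 5 were lower in OE (33.3%, against 9.34% of all genes tested), 0 were higher and 10 did not pass the test. All 15 log2 fold changes were below 0, from -0.75 to -0.05. ATP6V0A1 stood lowest, at -0.75 ± 0.09 (SE, adjusted p = 3.23e-06); its OE libraries, at 55.4 to 64.1 CPM, were well below the control libraries, at 99.7 to 101 CPM. ATP6V1E1, a stalk subunit, had 178, 175 and 199 CPM in KO libraries, 107, 101 and 132 CPM in OE libraries and 160, 149.5 and 138 CPM in control libraries. Each OE library was below each control library, with a log2 fold change of -0.39 ± 0.10 (SE, adjusted p = 0.00513). ATP6V1A had 151, 169.7 and 169.8 CPM in KO libraries, 148, 117 and 114 CPM in OE libraries and 151, 149.9 and 153 CPM in control libraries. Its OE libraries were all below the control libraries, though OE replicate 1 lay close to them. ATP6V0E1 (-0.33), ATP6V1G1 (-0.28) and ATP6V1A (-0.26) passed with adjusted p values of 0.0255, 0.041 and 0.0487. ATP6V0E1 lost its call without control replicate 1 (adjusted p = 0.174), OE replicate 1 (0.0811) or OE replicate 2 (0.145). ATP6V1G1 lost it without control replicate 1 (0.245) or 2 (0.063) or OE replicate 2 (0.175), and with the trend removed (0.0534). ATP6V1A lost it without any control replicate (0.112 to 0.131) or OE replicate 2 (0.192) or 3 (0.171).

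The KO and OE comparisons use the same 3 control libraries, so their values are not independent. Side by side, CTSH stood at 2.23 in KO and -0.83 in OE on the log2 scale, GAA at 1.01 and -0.50, and CTSD at 0.60 and -0.34. CTSC stood at -0.44 in KO and 0.65 in OE, and CTSL at 0.56 and 0.32. Compared directly, KO with OE, 31 of the 50 were higher in KO, 6 were lower and 13 did not pass the test, against 28.6% and 29.0% of all genes tested. The corrected fit gave 32 higher and 3 lower (28.0% and 25.1% of all genes). By role, 13 of 24 soluble hydrolases were higher and 3 lower, 3 of 7 membrane proteins were higher and 1 lower, and 13 of 15 V-ATPase genes were higher and 1 lower (corrected 11 and 0).

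The largest direct differences between KO and OE were those of CTSH, 3.06 ± 0.10 (SE, adjusted p = 3.23e-16) on the log2 scale, and GAA, 1.52 ± 0.16 (SE, adjusted p = 3.25e-08). Among the pump genes, ATP6AP2 differed by 1.24 ± 0.09 (SE, adjusted p = 4.45e-11) and ATP6V0E1 by 1.22 ± 0.10 (SE, adjusted p = 6.65e-10). The genes lower in KO than in OE were CTSC (-1.09), IDUA (-0.83), TCIRG1 (-0.58), CTSV (-0.53), TFE3 (-0.40) and NPC1 (-0.38). With the trend removed, IDUA, TCIRG1, TFE3 and NPC1 no longer passed, with values of -0.44, -0.20, -0.18 and -0.01. CTSL passed at 0.24 (adjusted p = 0.031), but its value was -0.09 (adjusted p = 0.393) with the trend removed, and its call was lost without KO replicate 3 (adjusted p = 0.206), OE replicate 1 (0.0954) or OE replicate 2 (0.0545). IDUA lost its call without OE replicate 2 (0.0613).

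Other genes of the same pathway, from lists named by function, were counted in the same fits. Of all genes tested, 26.0% were higher and 25.9% lower in KO (corrected 24.8% and 20.7%), and 9.28% and 9.34% in OE. Of 31 further lysosomal hydrolases and activator proteins tested, 15 were higher in KO cells and 2 lower, and 2 were higher and 7 lower in OE cells. In KO, PRCP (a carboxypeptidase) rose by 1.22 on the log2 scale, SIAE (a sialic acid esterase) by 1.09 and ASAH1, the acid ceramidase that releases sphingosine, by 0.77 (corrected 1.40, 1.15 and 1.01). In OE, PSAP, the precursor of the saposins, which activate sphingolipid hydrolases, averaged 1337 CPM, against 1875 CPM in control cells (log2 fold change -0.49, adjusted p = 0.000175), and GM2A and HYAL1 were lower as well. Of 27 further lysosomal membrane proteins, 6 (22.2%) were higher and 7 (25.9%) lower in KO, near the shares of all genes (corrected 11 and 2). Those higher by the smallest p were CD164, LAPTM4A and TMEM106B, at 0.72, 0.70 and 0.73 (corrected 0.53, 0.26 and 0.81). CLCN7 and TPCN1 were among the lower ones, at -0.43 and -0.47, but stood at 0.18 and 0.04 corrected, with no call. In OE, 0 of them were higher and 6 lower, SLC29A3, SIDT2 and SLC17A5 by the smallest p.

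Of 7 further V-ATPase genes tested, 0 were higher and 3 lower in KO (corrected 1 higher and 2 lower), against 26.0% and 25.9% of all genes tested. The lower ones were DMXL2 (-1.12, corrected -0.80) and DMXL1 (-0.99, corrected -0.73), which take part in pump assembly, and ROGDI (-0.54, no call with the trend removed). The 19 genes that deliver enzymes to lysosomes were split 8 higher and 8 lower in KO, 42.1% each (corrected 9 and 2). IGF2R, the large mannose 6-phosphate receptor, fell to 202 CPM in KO cells, against 427 CPM in control cells (log2 fold change -1.08, corrected -0.46). SUMF1, which activates lysosomal sulfatases, rose by 0.90 and VPS29, of retromer, by 0.79 (corrected 1.08 and 0.37). GGA1, an adaptor of the trans-Golgi, was lower at -0.35 but higher, at 0.30, with the trend removed (adjusted p = 0.0188). Of 4 cystatins tested, which inhibit cysteine cathepsins, 3 rose in KO, CSTA by 0.70, CSTB by 0.69 and CST3 by 0.57 (corrected 0.32, 0.69 and 0.34), and 0 of 4 passed in OE. Of 18 genes of nutrient sensing at the lysosomal surface, 8 (44.4%) were higher and 6 (33.3%) lower in KO (corrected 7 and 4). TSC2 was among the lower ones at -0.58 but higher, at 0.39, with the trend removed (adjusted p = 0.00063). LAMTOR1, of the Ragulator complex, rose by 1.07 (corrected 0.94), while MTOR and RPTOR fell to 62.9 and 41.6 CPM in KO cells, against 127 and 80.1 CPM in control cells (corrected log2 fold changes -0.48 and -0.27). In OE, 2 of these 18 were lower (11.1%, near the 9.34% of all genes tested), MITF (-0.59) and TSC2 (-0.26, no call with the trend removed). MITF was also among the lower ones in KO (-0.40, corrected -0.41).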

How the data were processed

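Poly-A selected RNA was sequenced as paired reads of 150 bases, per the labels' protocols. The deposited values are whole-number counts of reads per gene, made by the authors with featureCounts against Ensembl release 101 on GRCh38; its version is 1.5.2 per the file headers and 0.1.0 per the submitters' processing notes, which also name HISAT2 1.03. The counting command, per the file headers, set no option for strand, read pairs, multi-mapping reads or overlapping genes, so antisense and overlapping genes cannot be told apart and reads that touch several genes were left out. The authors' counts were not normalized.

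The 9 libraries were grouped by genotype and title. The filterByExpr function, at a minimum of 10 counts, left 13390 genes. They were scaled by TMM and fitted over all 9 libraries with edgeR 4.0.16 (glmQLFit, group as the only term, R 4.3.3), and two-sided contrasts were adjusted by Benjamini and Hochberg at 0.05. The common biological coefficient of variation was 10.2%. Columns of other series numbered 0. The corrected fit adds an offset to each library: a loess fit, with span 0.3, to its log2 CPM over log2 exon length and GC content (GENCODE release 29, found for 99.6% of the genes tested). No pair of replicates agreed within sampling noise (chi-square per degree of freedom 2.74 to 11.7). Alternatives were DESeq2 1.42.0 (size factors and Wald test), limma-voom 3.58.1, other filters and thresholds, only the groups compared, a replicate block, and leaving out each library. The code was tested on simulated data. Reads are not independent molecules, so 3 counts as a floor covers counting error only.

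The genes, the lists of other pathway genes and the rule for naming genes were chosen with earlier results of these data known. The rule gave values per library for 14 genes whatever their result and, in each comparison, for the called genes of largest change, up to 8 hydrolases, 3 membrane proteins and 5 V-ATPase genes, with up to 3 genes of each other list by smallest p. MANBA, ATP6V1B2, ATP6V1F and other genes outside the rule are named as the remaining members. CLCN7, TPCN1, GGA1 and the KO values of TSC2 and MITF were chosen after their values were seen. Promoter sequences are RefSeq's on GRCh38.p14.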

Additional observations from a re-analysis of the deposited data

How the results depend on the processing

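Of the 50 genes tested, none that was called in KO against control or in OE against control changed direction under an alternative, and CTSL was the one called in KO against OE that did. Among the further pathway genes, for which only the trend removal was run, CLCN7 and TSC2 were lower in KO against OE (-0.331 and -0.330) and higher with the trend removed (0.255 and 0.576). Counts of the 50 that were called stayed within 1.5 times the reported ones under DESeq2, limma-voom, other filters on low counts and fits of only the groups compared. Requiring at least 1.5-fold left 16 higher and 2 lower in KO against control, 1 higher and 2 lower in OE against control, and 2 lower in KO against OE. An adjusted p under 0.01 left 1 higher and 4 lower in OE against control. KO against OE had 3 lower once the length and GC trend was taken out, also with the replicate block. Leaving out 1 library gave 23 to 26 higher and 5 to 8 lower in KO against control, 1 to 2 higher and 5 to 13 lower in OE against control, and 29 to 32 higher and 5 to 8 lower in KO against OE. In the same order, these fits called 6033 to 6506, 1735 to 2478 and 6873 to 7619 of all 13390 genes tested. The replicate numbers did not pair the libraries (correlations of deviations between same-numbered libraries from -0.077 to 0.066), and the replicate block gave 26 higher and 6 lower in KO against control, 3 and 11 in OE against control, and 31 and 7 in KO against OE. Genes without a call changed sign as follows. Taking out the trend turned KO against control to 0.409 for SCARB2, 0.353 for ATP6V0A1 and 0.068 for TFEB on the log2 scale (0.408, 0.350 and 0.076 with the replicate block), of which SCARB2 and ATP6V0A1 then passed the test. It turned OE against control to -0.031 for CD63 and -0.018 for MCOLN1 (-0.033 and -0.015 with the block), and the called CTSL in KO against OE to -0.091 in both. Leaving out 1 library moved CTSA in KO against control from -0.008 to 0.119. In OE against control the values spanned -0.056 to 0.096 for MCOLN1, -0.026 to 0.116 for TFE3 and -0.081 to 0.068 for CD63, and in KO against OE they spanned -0.005 to 0.171 for SGSH and -0.006 to 0.082 for SCARB2. The cause of these changes was not tested. Depth limited the genes with few counts: CLN3 and ATP6V0C could not be tested, and CTSS had 42 to 59 counts in all in each group.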
